A study of Homo sapiens with 2 samples.

Results

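The 10 genes described here, UNG, SMUG1, TDG, OGG1, MUTYH, NTHL1, APEX1, XRCC1, POLB and PARP1, encode enzymes and a scaffold protein of base excision repair. They were taken by name from the 60664 genes of the count tables, through the symbol of each Ensembl gene identifier, and all 10 were found once. The tables come from 2 RNA-seq libraries of 1 group, wild-type HEK293T cells that received no treatment, made for a study of R-loops, in which RNA pairs with 1 strand of a DNA duplex. HEK293T is an established human line from embryonic kidney that carries adenovirus early genes and the SV40 large T antigen. The cell line entry of replicate 2 differs by a digit from its title, which names HEK293T and was followed. There is no second condition, so levels are compared between genes and between the libraries, and no test between groups was made.

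Base excision repair removes single damaged bases. A DNA glycosylase cuts the base from its sugar, an endonuclease nicks the strand at the abasic site, and a polymerase and a ligase fill and seal the gap. In R-loops the displaced DNA strand is single-stranded, and cytosines in single-stranded DNA are deaminated to uracil more readily than those in a duplex. UNG, SMUG1 and TDG remove uracil, TDG also thymine paired with guanine, and OGG1, MUTYH and NTHL1 act on oxidised bases or their partners.

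Replicate 1 held 18011638 counts and replicate 2 held 18575058. Counting noise alone did not account for the difference between them (a chi-square per degree of freedom of 12.7 over genes), and their common biological coefficient of variation was 15.6%. Whether each library had its own culture is not stated in the labels, and the SD given here may thus be a technical one. In bulk RNA, fewer cells that express a gene and less RNA per cell cannot be told apart. Of 9 neuronal and embryonic kidney genes listed for this line, 8 were detected at 1 CPM (counts scaled to the same library total) or more in both libraries. Of 20 markers of blood, fibroblasts, endothelium and kidney tubules 3 were, 1 of blood and 2 of fibroblasts. A further 9 of the 20 had 0 counts in both libraries, 2 of blood, 2 of fibroblasts, 2 of endothelium and 3 of kidney tubules. The summed level of these 20 was 13.2 CPM in replicate 1 and 11.7 CPM in replicate 2, against 1315 and 1430 CPM for the 10 repair genes. Both lists were drawn up with earlier results of these data known, so these counts do not test what the cells are. Over all protein-coding genes, 65.9% were detected.

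All 10 genes were detected in both libraries. Detection covered 27.7% of all genes and 65.9% of the 19890 protein-coding genes. The 10 took 0.132% of the counts in replicate 1 and 0.143% in replicate 2. Their median level was 24.9 TPM (counts over exon length, scaled likewise), against 2.88 TPM for all protein-coding genes and 8.52 TPM for the detected ones. Every one of the 10 lay above the protein-coding median. The lowest, POLB, exceeded 74.5% of protein-coding genes by TPM and the highest, APEX1, exceeded 98.1%. A value after ± below is the SD of both libraries (n = 2).

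**Figure D1:**
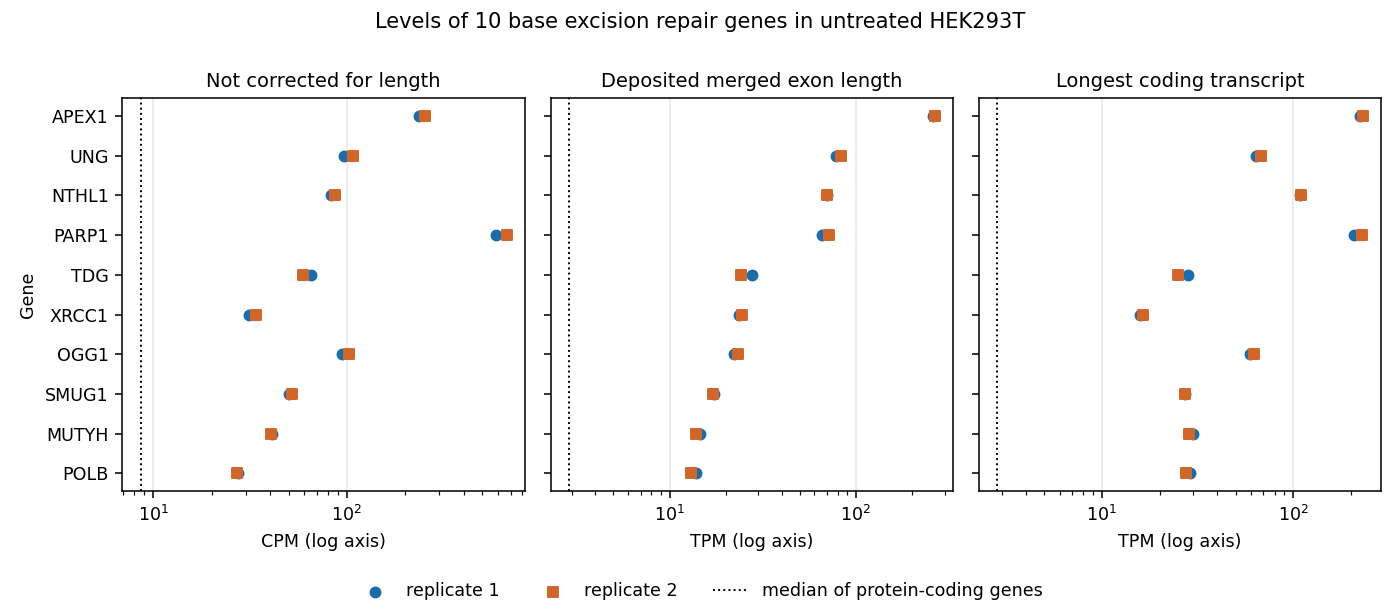
Level of each of the 10 genes in replicate 1 (circles) and replicate 2 (squares) on 3 scales with log axes: CPM, TPM with the deposited exon length and TPM with the longest coding transcript. The dotted line is the median of all protein-coding genes, which every point exceeds. PARP1 leads in CPM at 628, and APEX1 leads in TPM at 262.

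Among the uracil glycosylases UNG was the highest on each scale. UNG, which removes uracil that was misincorporated or arose by deamination, lies on chromosome 12 from 109097597 to 109110992 on the plus strand (GRCh38, identifier ENSG00000076248). It had 1744 counts in replicate 1 and 1989 in replicate 2, or 96.8 and 107 CPM, and 78.6 and 83.2 TPM. TDG, which excises thymine or uracil opposite guanine and the oxidised forms of 5-methylcytosine, lies on the same chromosome from 103965822 to 103988874 (ENSG00000139372). TDG had 1176 and 1108 counts, or 65.3 and 59.6 CPM, and 27.6 and 24.1 TPM. SMUG1, which takes uracil and 5-hydroxymethyluracil from single- and double-stranded DNA, lies there too, from 54121277 to 54189008 on the minus strand (ENSG00000123415). SMUG1 had 909 and 970 counts, or 50.5 and 52.2 CPM, and 17.3 and 17.1 TPM. The values of these 3 genes did not overlap between any pair of them in TPM or in CPM. UNG stood 2.85-fold over TDG in replicate 1 and 3.45-fold in replicate 2 by TPM, and 4.55-fold and 4.86-fold over SMUG1. Against the longest coding transcript the folds over TDG were 2.26 and 2.74, and those over SMUG1 were 2.35 and 2.51. On that scale SMUG1 (27.2 ± 0.0319 TPM) and TDG (26.6 ± 2.37 TPM) overlapped.

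UNG has 2 starts in RefSeq, 575 bases apart, and a count per gene pools them. The upstream start leads to the nuclear form of the protein and the downstream start to the mitochondrial form. The stretches just before them are shown because the 1744 and 1989 counts cannot be divided between them. Both are on the plus strand of GRCh38.p14, the first at chr12:109097347-109097596 and the second at chr12:109097922-109098117, which stops where an annotated exon begins. Capitals mark GGGCGG (the GC box, bound by SP1) or its reverse complement, and CACGTG (the E-box, bound by MYC and USF proteins).
UNG upstream start: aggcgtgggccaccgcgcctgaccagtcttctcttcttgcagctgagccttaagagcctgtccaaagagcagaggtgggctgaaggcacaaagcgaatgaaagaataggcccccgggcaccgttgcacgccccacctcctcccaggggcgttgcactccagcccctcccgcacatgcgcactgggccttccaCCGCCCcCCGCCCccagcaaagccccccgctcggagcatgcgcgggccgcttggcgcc
UNG downstream start: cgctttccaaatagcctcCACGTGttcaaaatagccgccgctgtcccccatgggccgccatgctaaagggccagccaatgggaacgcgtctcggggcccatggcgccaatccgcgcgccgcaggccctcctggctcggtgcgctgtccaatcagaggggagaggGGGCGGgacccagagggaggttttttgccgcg
The upstream stretch of 250 bases holds 2 GC boxes and no E-box. The downstream stretch of 196 bases, which ends short of its start because the exonic bases are not shown, holds 1 of each. The full window of 250 bases before the downstream start holds 3 GC boxes and 2 E-boxes.

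Among the glycosylases for oxidised bases NTHL1 was the highest by TPM with either length, and OGG1 by CPM. NTHL1, which removes oxidised pyrimidines, lies on chromosome 16 from 2039815 to 2047866 on the minus strand (ENSG00000065057). It had 1493 counts in replicate 1 and 1610 in replicate 2, or 82.9 and 86.7 CPM, and 70.4 and 70.5 TPM. OGG1, which removes 8-oxoguanine paired with cytosine, lies on chromosome 3 from 9749944 to 9788219 (ENSG00000114026). OGG1 had 1692 and 1906 counts, or 93.9 and 103 CPM, and 22.2 and 23.2 TPM. MUTYH, which removes adenine mispaired with 8-oxoguanine, lies on chromosome 1 from 45329163 to 45340893 on the minus strand (ENSG00000132781). MUTYH had 739 and 753 counts, or 41 and 40.5 CPM, and 14.6 and 13.8 TPM. In counts OGG1 exceeded NTHL1 in both libraries, and by TPM NTHL1 stood 3.17-fold and 3.04-fold over OGG1. The deposited exon length is 8733 bases for OGG1 and 2430 for NTHL1, and the longest coding transcripts have 2220 and 1067 bases. With those lengths NTHL1 had 109.7 ± 0.686 TPM and OGG1 61.1 ± 2.27 TPM, a fold of 1.84 in replicate 1 and 1.76 in replicate 2. MUTYH was the lowest of these 3 genes on each scale.

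APEX1, the main endonuclease of abasic sites, had the highest TPM of the 10 genes. It lies on chromosome 14 from 20455191 to 20457772 on the plus strand (ENSG00000100823), with an exon length of 1886 bases. APEX1 had 4260 counts in replicate 1 and 4706 in replicate 2, or 237 and 253 CPM, and 259 and 266 TPM. It stood 10.4-fold over the median of the 6 glycosylases in replicate 1 and 11.2-fold in replicate 2 by TPM, 5.01-fold and 5.08-fold with the longest coding transcripts, and 3.19-fold and 3.46-fold by CPM. The size of this step between the first and the next enzyme of the pathway therefore differed by over 3 times between scales, and APEX1 was the higher in each.

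PARP1, which senses strand breaks and builds poly(ADP-ribose), had the most counts. It lies on chromosome 1 from 226360210 to 226408154 on the minus strand (ENSG00000143799). PARP1 had 10614 counts in replicate 1 and 12386 in replicate 2, or 589 and 667 CPM, and 66.1 and 71.7 TPM. Its deposited exons sum to 18399 bases, 4.65 times its longest coding transcript of 3958 bases, the largest such excess among the 10 genes. With the transcript length PARP1 had 219 ± 13.6 TPM, and its values overlapped those of APEX1 (228 ± 5.31 TPM). XRCC1, the scaffold that holds the polymerase and ligase at the break, lies on chromosome 19 from 43543311 to 43580473 on the minus strand (ENSG00000073050). XRCC1 had 565 and 629 counts, or 31.4 and 33.9 CPM, and 23.6 and 24.4 TPM. PARP1 stood over XRCC1 by 2.80-fold and 2.94-fold in TPM, by 13.3-fold and 13.9-fold with the longest coding transcripts, and by 18.8-fold and 19.7-fold in CPM.

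POLB, the polymerase that fills the gap of a single nucleotide and trims the sugar phosphate left at the nick, was the lowest of the 10 genes in counts, CPM and TPM. It lies on chromosome 8 from 42338454 to 42371808 on the plus strand (ENSG00000070501). POLB had 494 counts in replicate 1 and 502 in replicate 2, or 27.4 and 27 CPM, and 13.8 and 13 TPM. APEX1 stood 18.8-fold and 20.4-fold over POLB in TPM, and 7.72-fold and 8.4-fold with the longest coding transcripts. On the transcript scale POLB had 28.3 ± 1.01 TPM, above SMUG1, TDG and XRCC1, with values that overlapped those of MUTYH and TDG. XRCC1 was then the lowest, at 16.1 ± 0.462 TPM.

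By TPM the order from the top was APEX1, UNG, NTHL1, PARP1, TDG, XRCC1, OGG1, SMUG1, MUTYH and POLB. Of the 9 pairs of neighbours in this order, NTHL1 and PARP1 overlapped in their library values, as did TDG and XRCC1, and the other 7 did not. MUTYH and POLB were the closest of those 7, with a lowest MUTYH value of 13.794 TPM and a highest POLB value of 13.7932 TPM. Of all 45 pairs of genes, 2 overlapped. By CPM the order was PARP1, APEX1, UNG, OGG1, NTHL1, TDG, SMUG1, MUTYH, XRCC1 and POLB, in which UNG and OGG1 overlapped. The CPM order matched the TPM order in 37 of 45 pairs, and the order by longest coding transcript matched it in 32. Of the 13 pairs turned by the transcript length, 10 had values that overlapped on neither scale. The highest gene exceeded the lowest 19.6-fold by TPM, 14.2-fold by transcript length and 23.1-fold by CPM.

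The counts of 3 genes are uncertain because they share exonic bases with neighbours, and how the authors' counting treated reads there is not stated. In 837 pairs a gene lies wholly within exons of a gene on the other strand. The inner gene had counts in 523 of them in replicate 1 and 532 in replicate 2, and exceeded the outer in 0 of those. MUTYH shares 40.1% of its exonic bases. Of these, 491 lie in TOE1 on the opposite strand, which had 666 and 669 counts, and 1838 in ENSG00000288208 on the same strand, which had 638 and 630. OGG1 shares 29%, with 2175 bases in CAMK1, a kinase gene on the opposite strand. CAMK1 had 1390 and 1672 counts, and 80.1% of its exonic bases lie within OGG1 exons. The CAMK1 counts were 82.2% of those of OGG1 in replicate 1 and 87.7% in replicate 2. Whether reads of CAMK1 were counted in OGG1 too was not tested. The level of OGG1 on each scale is thus uncertain, as are the folds of NTHL1 over it and its lead in counts and CPM. XRCC1 shares 28.2%, the most with the antisense gene ENSG00000269583, which had 97 and 170 counts. It also shares 224 bases with ENSG00000268361, a protein-coding gene on the same strand, which had 114 and 191 counts. The other 7 genes share under 5% of their bases, and UNG, TDG, NTHL1, PARP1 and POLB share none. The median of these 7 was 68.9 TPM. Of 6 annotated pseudogene copies (PARP1P1, PARP1P2, SMUG1P1, TDGP1, UNGP1 and UNGP3), each had 0 counts in both libraries. By counting error alone this allows up to 0.167 CPM in replicate 1 and 0.162 CPM in replicate 2. Whether reads that match a copy and its parent gene equally were counted is not known, so these values do not bound such reads.

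Several of the 10 genes start beside another gene. For 4 of them, an opposite-strand protein-coding gene begins within 1000 bases of the member's own first base, against 13.2% of all protein-coding genes. All 10 genes were detected, and the share among detected genes alone was not computed. APEX1 is 102 bases from OSGEP, a tRNA modification gene, NTHL1 101 from TSC2, a regulator of mTOR, TDG 114 from UQCC6, an assembly factor of the respiratory chain, and MUTYH 841 from TOE1. OSGEP had 30.1 ± 0.49 TPM, below APEX1, and TSC2 had 7.63 ± 0.747 TPM, below NTHL1. UQCC6 had 55.5 ± 1.35 TPM, above TDG, and TOE1 had 31.3 ± 1.54 TPM, above MUTYH. In each of these pairs the library values of the genes did not overlap, and the member was the higher in 2 of 4.

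RefSeq windows of the 250 bases before the start were at hand for 8 of the 10 genes (11 windows, all but SMUG1 and POLB), and were searched on both strands. CACGTG was found for 4 of the 8 genes, APEX1, NTHL1, TDG and UNG, in 4 of 11 windows. It occurs in 6.34% of all 35116 windows and in 8.30% of the 15300 windows of detected protein-coding genes. GGGCGG was found in 8 of 11 windows, against 63.8% of the windows of detected genes, and CCAAT in 7 of 11, against 32.9%. TGCGCA, the core of the NRF1 motif, was found in 2 of 11, those of XRCC1 and of the upstream start of UNG, against 10.1%, and TATAAA in 0 of 11, against 5.75%. UNG has 2 of these windows and MUTYH 3, so the windows are not independent. In the 11 windows matches of different motifs shared no base. The median GC content of the 11 windows was 68%, against 64.8% for detected genes. The genes without CACGTG include PARP1, which leads in CPM. The 30 bases around each E-box are shown, and 3 of these stretches are of APEX1. All read towards the gene on GRCh38.p14, with the E-box in capitals, and they lie in order at chr14:20455109-20455138, chr14:20455170-20455199, chr14:20455191-20455220, chr16:2047859-2047888, chr12:103965780-103965809, chr12:109097928-109097957 and chr12:109098113-109098142.
APEX1 first: aagcgtctccgtCACGTGgtgtcagacaga
APEX1 second: cgcgcctctgatCACGTGaccaggtccgct
APEX1 nearest the start: aggtccgctaccCACGTGggggctcagcgt
NTHL1: cgatccttgcatCACGTGacggggccgcat
TDG: gctgtcctacatCACGTGacggccagtacg
UNG first: ccaaatagcctcCACGTGttcaaaatagcc
UNG second: ccgcgaaaagacCACGTGgggacgcggtgg
Distances count to the RefSeq start, which for APEX1 (20455226), NTHL1 (2047834) and TDG (103965872) lies inside the gene as the count tables bound it. The 3 matches of APEX1 lie 105, 44 and 23 bases before that start, that of NTHL1 42, that of TDG 80, and those of UNG 232 and 47 before its downstream start. By the bounds in the count tables, the APEX1 match nearest the start and both UNG matches lie within the gene. A match is a run of letters and not a measured binding site. APEX1, NTHL1 and TDG start 101 to 114 bases from a gene on the opposite strand. Which gene of such a pair a match belongs to was not tested.

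Ratios between the libraries lay within 0.5 log2 for all 10 genes. The log2 ratio of replicate 2 over replicate 1, after scaling between libraries, ran from -0.10 for TDG to 0.21 for PARP1, with a median of 0.11. None reached 0.5 log2 in either direction, a size that 11.7% of 14704 genes did reach, those whose counts averaged at least 50. For 10 genes a count of 0 is near that share and does not set them apart. The 14704 also include genes with fewer counts than any of the 10. The ratio was above 0 for 9 genes and below 0 for TDG, and among the 14704 genes it was above 0 for 7357. PARP1 (1.16-fold), UNG (1.13-fold), OGG1 (1.12-fold) and APEX1 (1.09-fold) had intervals for counting error that lay above 0, and those of the other 6 genes held 0. For 6 of the 10 genes the ratio was nearer 0 than the median of the 1000 genes closest in mean count. Each side of a ratio is 1 library, so no replicate stands behind it.

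**Figure D2:**
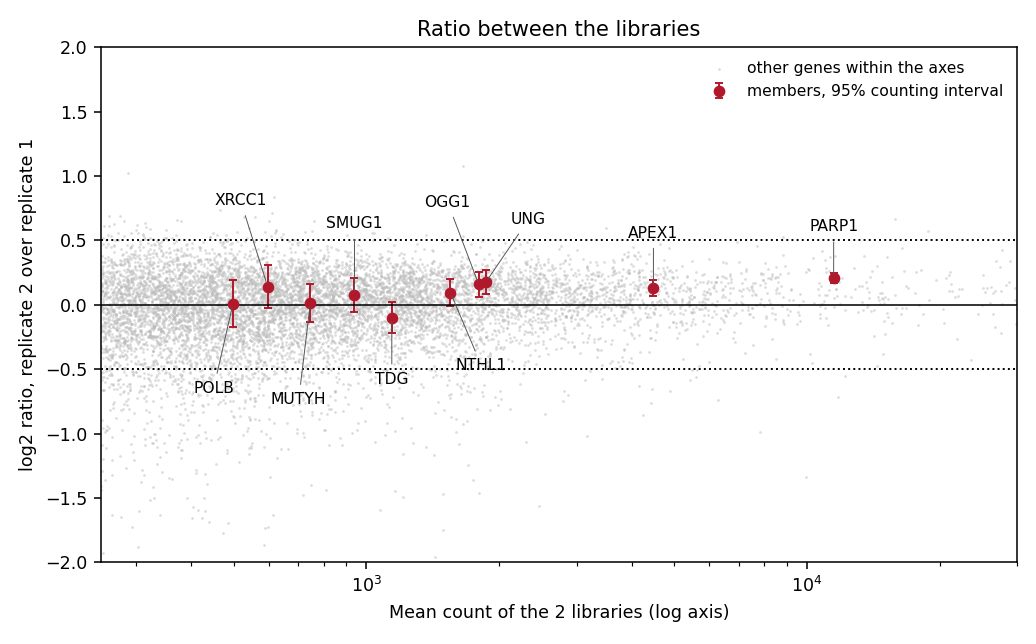
Log2 ratio of replicate 2 over replicate 1 (vertical axis) against the mean count (horizontal log axis) for the 10 genes (red, bars are 95% intervals for counting error) and for other genes within the axes (grey). Dotted lines mark 0.5 log2 in each direction. All 10 genes lie between them, from -0.10 to 0.21.

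Ratios between the libraries moved with GC content. Across the 14704 genes Pearson's r of the ratio with transcript GC was 0.39, and across the 10 genes and 34 further genes of the pathway it was 0.45. These are descriptions across genes, which share the same libraries and are not independent. TDG, with the lowest GC content of the 10 at 39.5%, was the gene with a ratio below 0. After each ratio was centred on genes of like GC content, that of TDG was 0.13, and those of the 10 ran from -0.10 to 0.17. The part of GC content in these ratios was not tested.

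**Figure D3:**
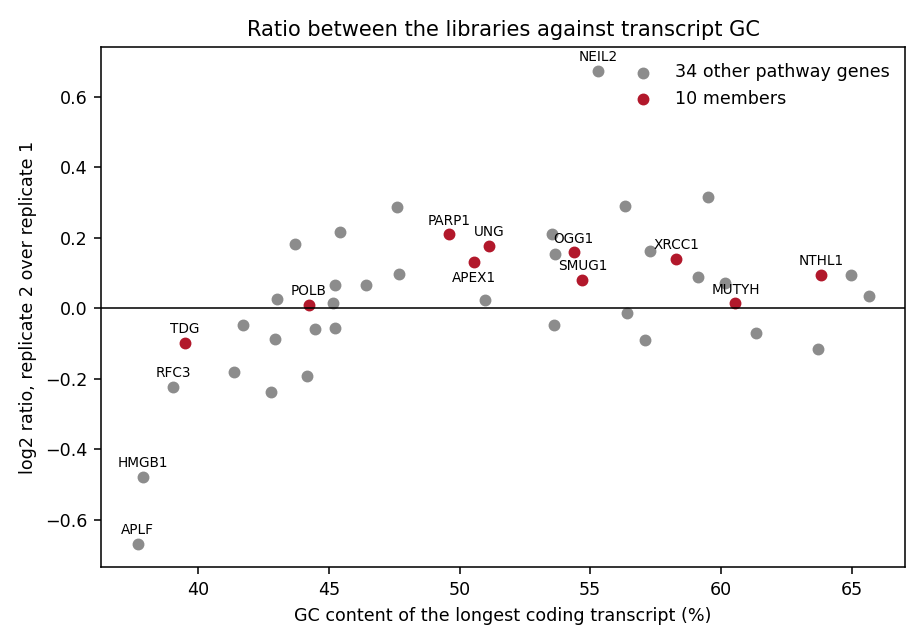
Log2 ratio of replicate 2 over replicate 1 (vertical axis) against GC content of the longest coding transcript in percent (horizontal axis) for the 10 genes (red) and 34 other genes of the pathway (grey). APLF (-0.67) and HMGB1 (-0.48) lie lowest and furthest left, and TDG (-0.10) is the lowest and leftmost red point.

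The other 34 genes of the pathway were all detected, with a median of 24.4 TPM, against 24.9 TPM for the 10. With the longest coding transcripts the medians were 29.3 TPM and 45.2 TPM. MPG, which removes alkylated purines, led the remaining 5 glycosylases at 124 ± 3.57 TPM, 1.61-fold and 1.46-fold over UNG. By CPM it was below UNG, at 0.946 and 0.858 of its level, and 30.1% of the exonic bases of MPG also lie in other genes. MBD4, which removes thymine or uracil at methylated CpG sites, had 19.7 ± 3.2 TPM. The endonuclease VIII-like glycosylases NEIL1 and NEIL3 had 19.1 ± 1.52 and 17.6 ± 2.37 TPM, and 30.5% of the exonic bases of NEIL1 also lie in other genes. NEIL2 was the lowest glycosylase, with 44 counts in replicate 1 and 72 in replicate 2 (1.89 ± 0.55 TPM), below the protein-coding median.

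Among genes of end processing, APEX2, the second abasic endonuclease, had 26.9 ± 1.53 TPM, and APEX1 stood 10-fold and 9.50-fold over it. TDP1, which frees ends from trapped topoisomerase I, had 7.33 ± 0.284 TPM. APTX, which removes AMP from failed ligations, had 6.81 ± 0.648 TPM, or 33.5 TPM with its longest coding transcript, since its deposited exons are 7.20 times as long. APLF, a factor that binds poly(ADP-ribose), had 72 and 45 counts and the lowest TPM of all 44 genes (0.916 ± 0.344), while NEIL2 had the lowest mean CPM. Among the other enzymes of poly(ADP-ribose), PARP2 had 26.7 ± 0.343 TPM, PARP3 12.7 ± 1.16 and PARG, which degrades the polymer, 10.1 ± 0.894.

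LIG1, the ligase of replication and long-patch repair, stood over LIG3, the partner of XRCC1, on each scale. LIG1 had 1177 counts in replicate 1 and 1453 in replicate 2, and LIG3 had 352 and 380. In TPM LIG1 was 6.56-fold and 7.5-fold higher, with the longest coding transcripts 7.11-fold and 8.13-fold, and by CPM 3.34-fold and 3.82-fold. In LIG3, 30.5% of exonic bases also lie in other genes.

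The 17 genes of long-patch synthesis, in which a longer stretch is copied and a flap cut away, had a median of 59 TPM. The sliding clamp gene PCNA was the highest at 752 ± 55.4 TPM and POLE, the catalytic subunit of polymerase epsilon, the lowest at 9.91 ± 0.515. With the longest coding transcripts PCNA (530 TPM) and POLE (14.5 TPM) were again the highest and lowest. By CPM HMGB1 was the highest at 791 and POLD4 the lowest at 18.7. FEN1, the flap nuclease, had 3588 and 4031 counts, or 191 ± 5.71 TPM, and stood 13.6-fold and 15-fold over POLB, or 4.20-fold and 4.65-fold with the longest coding transcripts. Most of these genes also serve DNA replication, so their level is not one of repair alone.

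**Figure D4:**
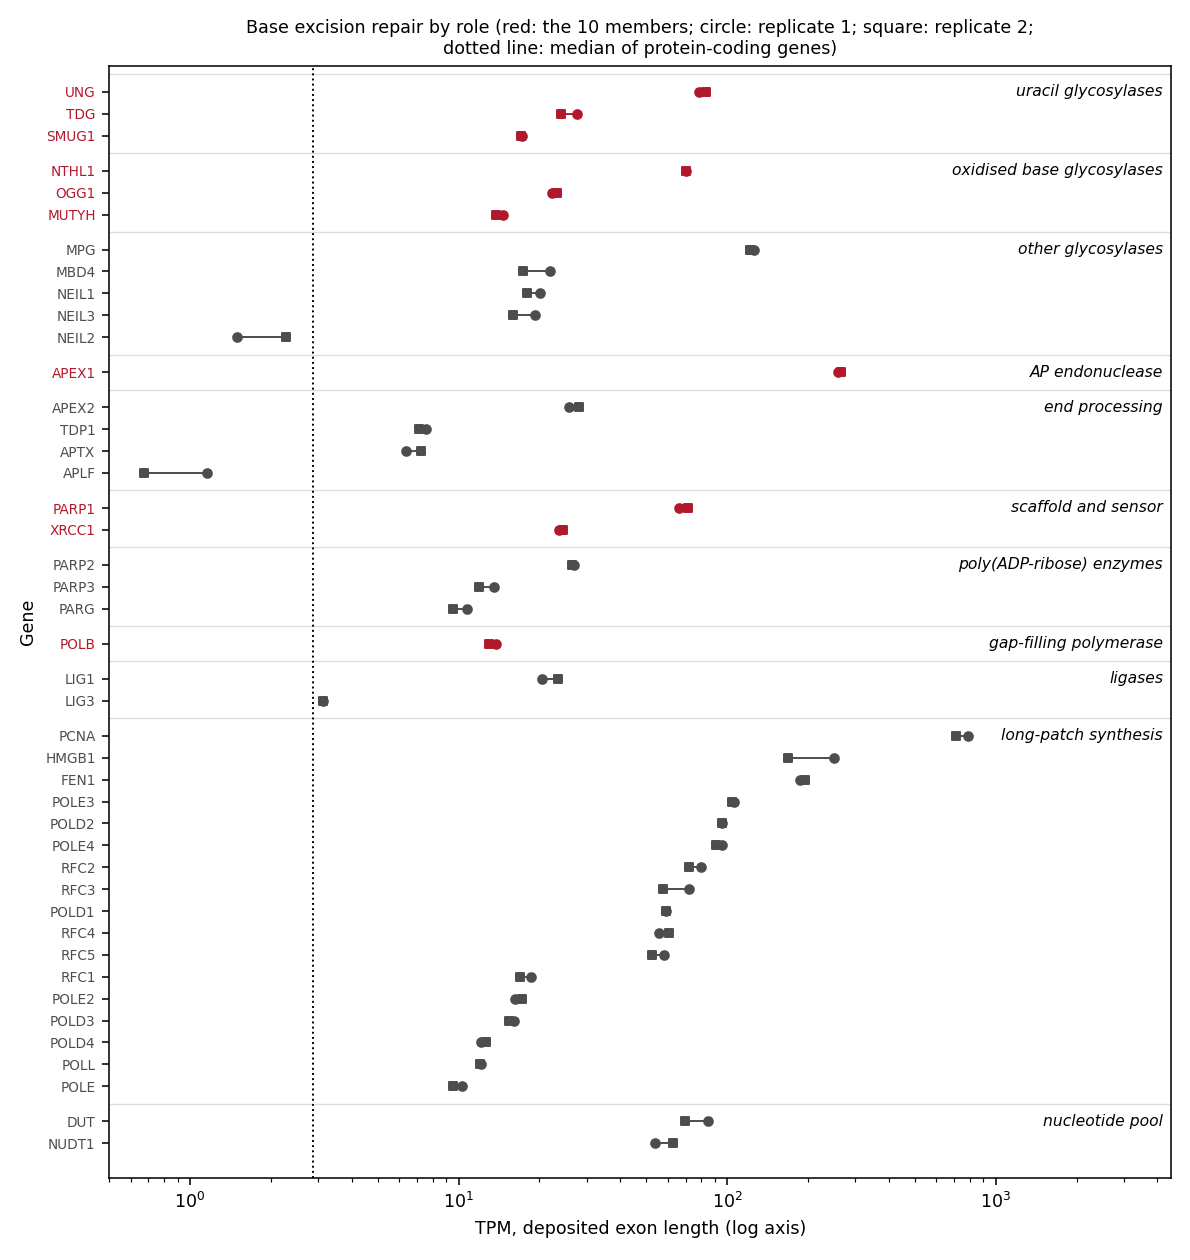
TPM with the deposited exon length (horizontal log axis) of the pathway genes named by symbol, grouped by role, in replicate 1 (circles) and replicate 2 (squares). The 10 members are red, and the dotted line is the median of all protein-coding genes at 2.88 TPM. PCNA lies furthest right at 752 TPM, and NEIL2 and APLF lie left of the line.

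Of these 34 genes, 2 passed 0.5 log2 between the libraries, against 11.7% of the 14704 genes. They were NEIL2 (0.67) and APLF (-0.67), both with fewer than 100 counts in each library. HMGB1, a chromatin protein that stimulates the repair enzymes, had 16745 counts in replicate 1 and 12132 in replicate 2 (-0.48). HMGB1 and APLF have the lowest GC contents of the 44 genes, 37.9% and 37.7%, and after centring on GC content their ratios were -0.17 and -0.36. Scaled by library totals alone, HMGB1 also passed 0.5 log2, at -0.51.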

How the data were processed

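The authors deposited raw counts per Ensembl gene, 1 file per library, with exon coordinates and merged exon lengths, per the file headers. RNA was primed with oligo(dT) for first-strand synthesis, per the labels' protocols. The tools featureCounts 2.0.3, Trim Galore 0.6.7 and bcl2fastq 2.17 and the build GRCh38 are listed without roles, per the submitters' processing notes. No source used here gives the aligner, the annotation release or how reads in overlapping genes were counted.

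CPM, TPM and exact 95% binomial intervals were computed here from the deposited counts. The intervals, and the 3 counts that a count of 0 allows, cover counting error only. Gene types, transcript GC and longest coding transcripts came from GENCODE 29, which holds 58396 of the identifiers, and 60463 had a symbol. Where GENCODE 29 has no transcript, the deposited length was kept. Ratios were made in edgeR 4.0.16 with a prior count of 2 and TMM scaling (1.01 and 0.989). The calculation was run on simulated counts with set fold changes, a smaller spread between libraries than here and no trend with GC content. That run checks the calculation alone and not the ratios of these libraries. GC centring subtracted the median ratio in 20 bins of GC content. DESeq2 1.42.0 size factors were an alternative. Overlaps used bedtools 2.31.1, and promoter windows came from RefSeq on GRCh38.p14. The members, the gene lists and the rule to name all members and each short list were chosen with earlier results of these data known. The promoter motifs and the search for neighbouring starts were added after the values were seen. Values of 1 further pathway gene and 1 marker are not reported here singly, though summaries of the lists include them.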

Additional observations from a re-analysis of the deposited data

How the results depend on the processing

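All 10 genes stayed detected at 5 CPM, at 1 TPM and with either library alone, and none passed 0.5 log2 with DESeq2 size factors (1 and 1, so that the counts were left unscaled), library totals, centring on GC content, a minimum mean count of 10 or no minimum, nor did any pass 1 log2. The median level of the 10 genes moved from 24.9 TPM to 45.2 with the longest coding transcripts, to 38.3 with protein-coding genes alone in the denominator and to 68.9 without OGG1, MUTYH and XRCC1, whose exons overlap other genes by at least 25%, and it was 73.6 CPM without length correction. It ranged from 24.3 to 25.6 TPM with 1 library left out. The median of the other 34 pathway genes moved from 24.4 TPM to 29.3 with the longest coding transcripts and was 62.9 CPM, and it ranged from 23.9 to 25 TPM with 1 library left out. Single levels moved most with transcript length, to 3.18 times for PARP1 and to 0.67 times for XRCC1. The order kept 32 of 45 pairs with transcript length, 37 by CPM, 43 without replicate 1 and 45 without replicate 2. Ratios near 0 changed sign for MUTYH and POLB with library totals and for SMUG1, TDG, MUTYH and NTHL1 with GC centring. The count of other pathway genes past 0.5 log2, whose alternatives were chosen after seeing the data, was 2, and it was 3 with library totals, 1 with GC centring and 0 at 1 log2. Shares over all genes were not computed under these alternatives. Ratios could not be given with a library left out. No paired analysis was possible because the labels give a single group.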

Other observations

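Genes that keep damaged bases out of the nucleotide pool were well above the protein-coding median. DUT, which degrades dUTP and so limits uracil in DNA, had 2721 counts in replicate 1 and 2406 in replicate 2 (77.3 ± 10.7 TPM). NUDT1, which degrades oxidised purine nucleotides, had 981 and 1232 counts (58.3 ± 6.32 TPM). The libraries differed for them in opposite directions, with log2 ratios of -0.19 for DUT and 0.31 for NUDT1 and intervals for counting error that did not hold 0. After centring on GC content these ratios were -0.14 and 0.20.

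Lists of other excision pathways are given as values alone. The median was 11.3 TPM over 8 mismatch repair genes, of which 7 were detected, and 16.1 TPM over 13 nucleotide excision repair genes, all detected, against 24.9 TPM over the 10 base excision repair genes. With the longest coding transcripts these medians were 12, 17.1 and 45.2 TPM, and by CPM 39.8, 41.1 and 73.6.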
